A study of Mus musculus with 4 samples.

Results

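This report describes 9 genes of 28006 measured features, taken by symbol: the CC chemokines Ccl2, Ccl7 and Ccl11, the CXC chemokines Cxcl1, Cxcl2, Cxcl9, Cxcl10 and Cxcl14, and the receptor Ackr3. They were chosen with measured values known, namely their levels in the cell types and their differences between the femurs compared here, so the values given for these genes are descriptions and carry no test. Tests are given only for other genes, in lists of the chemokine, NF-kB and interferon systems and of dissociation and immediate early genes. These lists too were chosen with earlier results of these data known, so their p-values are not independent of that choice. Levels are CPM, the UMIs (unique molecular identifiers, each standing for 1 captured transcript) of a gene per 1000000 UMIs of the cells summed in a library, and all UMIs were counted at 3′ ends.

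Chemokines are small secreted proteins that bind G protein-coupled receptors and draw leukocytes along a gradient. CCL2 and CCL7 attract monocytes through CCR2, CCL11 attracts eosinophils through CCR3, CXCL1 and CXCL2 attract neutrophils through CXCR2, and CXCL9 and CXCL10 are induced by interferon and attract activated T and NK cells through CXCR3. ACKR3 is an atypical receptor that binds CXCL12 and removes it without classical G protein signalling, while CXCR4 is the signalling receptor for the same ligand. In bone marrow, CXCL12 made by reticular stromal cells retains hematopoietic cells, and CCL2 from stromal cells is known for its part in the release of monocytes into blood.

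The cells were sorted as tdTomato+ from dissociated femurs of Cxcl12-iCreER; R26R(tdTomato/+) mice 7 days after bone marrow ablation. Every mouse carried both alleles and had received tamoxifen 7 days before the operation. The study reports that a substantial part of the sorted cells had no detectable tdTomato by cluster, among them myeloid, lymphoid and erythroid cells. The hematopoietic classes below are therefore not read as marked cells, nor their numbers as the make-up of the marrow. ABL denotes the ablated femur and CONT the contralateral femur that was not operated on, with 2 libraries each. A Cxcl12 BAC transgene drives the tamoxifen-inducible Cre in this line, animals were pooled, and the reporter marks cells that had recombined around the time of injection together with their descendants. Replicate 1 was made with Chromium version 2 and replicate 2 with version 3, so the chemistry cannot be told apart from the replicate. Where 4 values stand in a row, they follow the order CONT and ABL of replicate 1, then CONT and ABL of replicate 2, called library order here.

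The 4 libraries held 22889380 to 44784072 UMIs and 1459 to 3433 cells passed the filters. CONT and ABL of replicate 1 shared 5 cell barcodes and those of replicate 2 shared 1. The library labelled ABL replicate 2 stood apart in sex-linked transcripts: Xist was at 0.0781 CPM in its mesenchymal cells and at 578 to 808 in the other libraries, although both femurs of a replicate are described as taken from the same mice. In library order, 4 Y-linked genes summed to 86.4, 30.5, 57.2 and 113 CPM in mesenchymal cells. The mix of sexes thus differed between CONT and ABL of replicate 2, and its part in their differences was not tested. Cells were clustered without the 9 genes and classes were named from marker genes, and every named class is written with "-like". Reticular-like cells numbered 906, 304, 1956 and 324 in library order, which was 68.7%, 44.0%, 95.2% and 17.9% of the mesenchymal cells. A cluster of replicate 1 with 252 cells in CONT and 91 in ABL (19.1% and 13.2% of mesenchymal cells) scored highest for reticular markers, but a marker of another class and none of its own stood among its 10 leading genes, so it stayed unnamed. All 8 reticular markers, Adipoq and Lepr among them, were detected in each library, and their summed level in library order was 11458, 10588, 15127 and 13734 CPM. Joint lining-like cells were named only in replicate 2, with 11 cells in CONT and 196 in ABL, while a cluster of 147 cells led by Prg4 in replicate 1 stayed unnamed, and cycling-like cells numbered 8 and 123 there. The 17 cells of replicate 1 that scored highest for cycling markers were led by Rgs5, Acta2 and Myh11 and are not described under that name. Periosteal/fibroblast-like cells of replicate 2 joined 2 clusters, of which one (led by Clec3b and Mfap5) held 10 cells of CONT and 471 of ABL and the other (led by Dio2 and Mfap4, with reticular markers as its second score) 27 and 53, so the class was mostly the second cluster in CONT and mostly the first in ABL. Markers of other lineages were also present in the reticular-like sums. In library order, the 10 granulocytic markers summed to 9950, 5932, 143 and 107 CPM and the 9 erythroid markers to 17903, 9263, 282 and 2279. Their part in the differences below was not tested by itself. Free RNA, estimated from empty droplets and scaled by these markers, was subtracted in an alternative run of the fits below. In ABL replicate 2 the 2 marker sets disagreed, as its empty droplets held 11288 CPM of the granulocytic and 8640 of the erythroid markers. The estimate for that library thus rests mostly on erythroid markers, and the granulocytic markers alone would give a lower one.

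All but Cxcl14 and Ackr3 lie near another of the 9 genes. On build GRCm38, Ccl2 (chr11:82035571-82037453), Ccl7 (chr11:82045712-82047525) and Ccl11 (chr11:82057823-82062955) lie in this order on the plus strand, with 8.3 kb and 10.3 kb between them. On chromosome 5, Cxcl1 (chr5:90891241-90893115) and Cxcl2 (chr5:90903871-90905938) are 10.8 kb apart on the plus strand, and Cxcl9 (chr5:92321347-92328079) and Cxcl10 (chr5:92346638-92348889) are 18.6 kb apart on the minus strand. Cxcl14 is at chr13:56288643-56296551 on the minus strand and Ackr3 at chr1:90203980-90216751 on the plus strand. All 9 are protein coding.

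Both neighbouring CXC pairs are shown by the 250 bases before their transcription start, because Cxcl9 and Cxcl10 differed in direction in replicate 2 while Cxcl1 and Cxcl2 differed in the cells that held them. The sequences are those of RefSeq on GRCm38.p6, 5′ to 3′ on the strand of the gene, and 6 of the 9 genes were matched there. Capitals mark matches on either strand to the interferon-stimulated response element, searched as GAAA, any 2 bases and GAAA again, or to the NF-kB consensus.
Cxcl10, chr5:92348890-92349139, minus strand: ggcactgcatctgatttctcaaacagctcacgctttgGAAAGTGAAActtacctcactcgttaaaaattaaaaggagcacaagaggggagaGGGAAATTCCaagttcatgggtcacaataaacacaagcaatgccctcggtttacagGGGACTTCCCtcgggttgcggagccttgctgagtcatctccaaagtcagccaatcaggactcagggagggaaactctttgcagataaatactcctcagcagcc
Cxcl9, chr5:92328080-92328329, minus strand: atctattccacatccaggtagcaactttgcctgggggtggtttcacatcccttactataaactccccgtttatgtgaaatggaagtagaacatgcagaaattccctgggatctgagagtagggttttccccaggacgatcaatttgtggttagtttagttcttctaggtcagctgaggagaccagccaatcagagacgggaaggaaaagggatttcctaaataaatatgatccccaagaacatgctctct
Cxcl1, chr5:90890995-90891244, plus strand: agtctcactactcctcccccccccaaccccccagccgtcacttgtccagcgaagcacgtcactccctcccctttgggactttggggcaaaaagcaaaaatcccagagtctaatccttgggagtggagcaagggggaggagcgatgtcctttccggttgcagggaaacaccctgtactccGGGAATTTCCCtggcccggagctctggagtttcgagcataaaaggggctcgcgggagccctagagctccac
Cxcl2, chr5:90903649-90903898, plus strand: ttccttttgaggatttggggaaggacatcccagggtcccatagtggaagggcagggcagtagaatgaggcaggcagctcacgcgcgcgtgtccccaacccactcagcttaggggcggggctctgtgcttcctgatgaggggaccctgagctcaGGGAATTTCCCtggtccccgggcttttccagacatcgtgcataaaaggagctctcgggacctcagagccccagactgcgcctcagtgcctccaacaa
The Cxcl10 window held 1 interferon-stimulated response element, 213 to 204 bases before the start, and NF-kB matches at 159 to 150 and at 103 to 94 bases. The Cxcl9 window held neither motif. The Cxcl1 and Cxcl2 windows shared the same run of capitals, which matches the NF-kB consensus on both strands 1 base apart and begins 71 and 97 bases before the start. Of 32841 RefSeq promoter windows of this length, 2.98% held the interferon element and 3.9% the NF-kB consensus. Cxcl14 had 1 interferon element match, 172 to 163 bases before its start, and Ackr3 had neither motif. Distances are counted from the RefSeq start, which for Cxcl1 and Cxcl2 lies inside the gene span given above. A match is a run of letters and was not tested for binding.

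In reticular-like cells, 6 of the 9 genes had lower values in ABL than in CONT in both replicates: Ccl2, Ccl7, Cxcl1, Cxcl2, Cxcl10 and Cxcl14. Of these, Cxcl2 was below its free RNA estimate in 3 of the 4 libraries, and the counting interval of its log2 ratio in replicate 2 (-1.92 to 0.20) included 0. For 4 of the 6 (Ccl2, Cxcl1, Cxcl10 and Cxcl14) both ABL libraries were below both CONT libraries. Among all 11015 genes tested in these cells, 8.28% had both ABL libraries below both CONT libraries and 18.6% had both above. As the genes were chosen on this contrast, nothing is read from that comparison. Cxcl9 moved in opposite directions in the replicates, and Ccl11 and Ackr3 were at or near 0 in reticular-like cells. In the edgeR fit, 7 of the 9 passed the filter on low counts. Over all mesenchymal cells the groups did not overlap for 6 genes with lower values in ABL and for Ackr3 with higher values, beside 18.8% and 22.4% of 13729 genes.

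**Figure D1:**
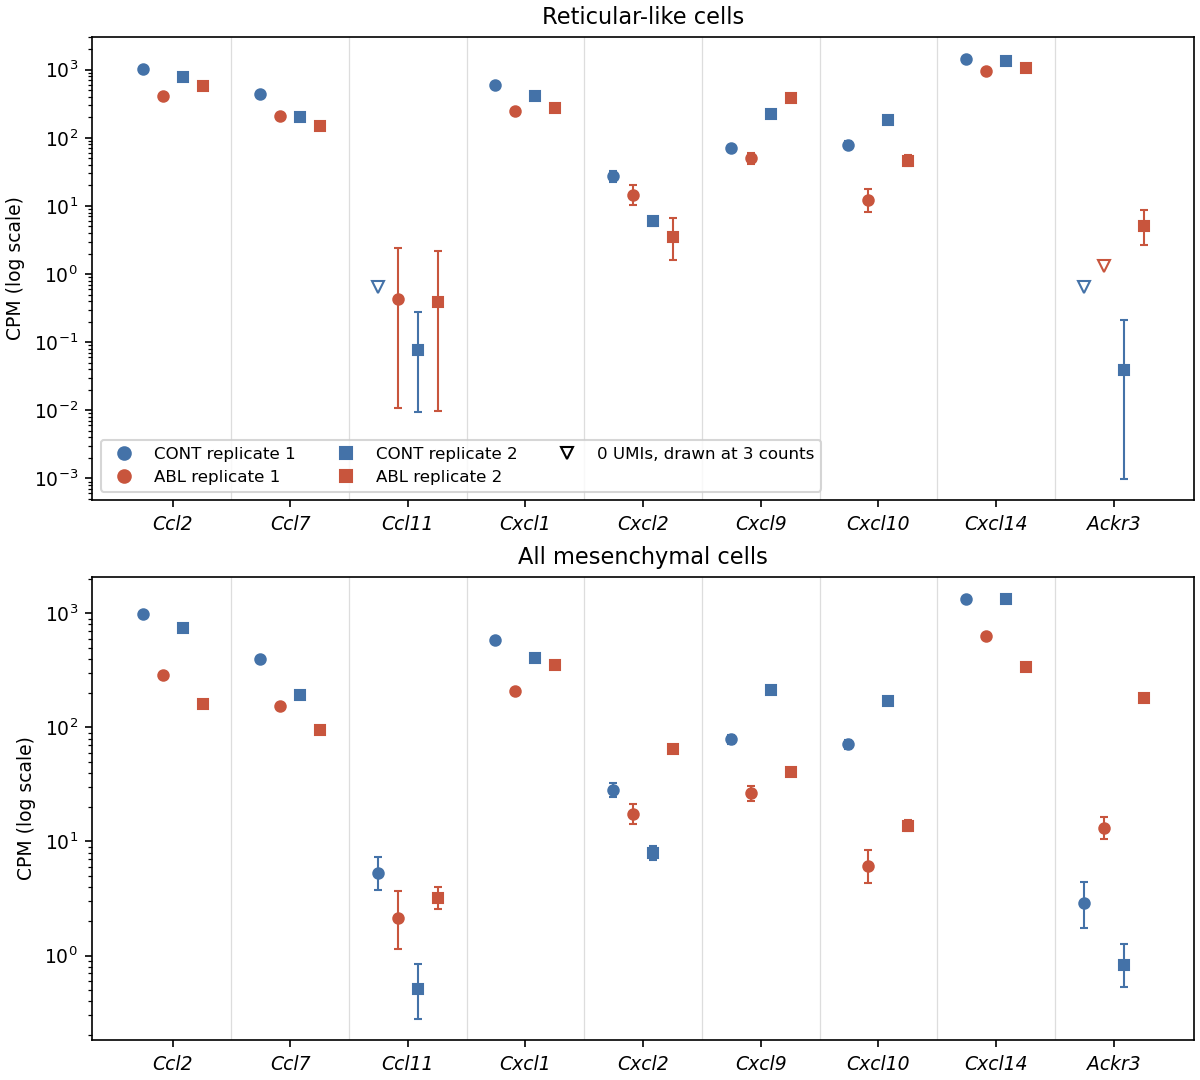
Levels of the 9 genes (CPM, log axis) in each library, as points for CONT and ABL of replicates 1 and 2, in reticular-like cells and in all mesenchymal cells, with exact 95% Poisson intervals of the counts as bars and open triangles at 3 counts for 0 UMIs. In reticular-like cells Cxcl10 was at 79.7 and 181 in CONT and at 12.1 and 46.0 in ABL, and Ackr3 reached 182 in all mesenchymal cells of ABL replicate 2.

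Ccl2, the main monocyte chemoattractant, had a level of 1024 CPM in reticular-like cells of CONT and of 410 in those of ABL in replicate 1. In replicate 2 it was at 786 in CONT and 573 in ABL. Both ABL libraries were below both CONT libraries, by 2.5-fold in replicate 1 and by 1.37-fold in replicate 2. On the log2 scale the ratio of ABL to CONT was -1.32 (95% counting interval -1.42 to -1.22) and -0.46 (-0.53 to -0.38), so the replicates differed from each other by more than counting error. The edgeR fit with the replicate as a block gave -0.99 with a standard error of 0.39. With each cell thinned to 2000 UMIs, Ccl2 was found in 41.1%, 19.1%, 35.8% and 21% of reticular-like cells in library order. Before thinning these shares were 54.7%, 38.2%, 56.5% and 33.3%, at median depths of 4584, 6640, 12743 and 7452 UMIs a cell. Hematopoietic cells, which are set beside these shares for UMIs from free RNA, gave thinned shares of 6.15% to 10.4% at median depths of 7200 to 14553. For Ccl2 and Ccl7, and below for Cxcl1, Cxcl9 and Cxcl10, they are not a background of free RNA alone. Monocyte/macrophage-like cells among them held Ccl2 and Ccl7, and their part of the hematopoietic cells differed between libraries. In ABL replicate 2, granulocytic-like cells held 5 of 250 hematopoietic UMIs of Cxcl1, 4 of 120 of Cxcl9 and 54 of 239 of Cxcl10. Erythroid-like cells held 3, 0 and 4, so most lay in other classes.

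Ccl7, a second ligand of CCR2, had levels in reticular-like cells of 433 and 209 in CONT and ABL of replicate 1 and of 199 and 149 in replicate 2. ABL was lower within each replicate, by 2.07-fold and 1.34-fold, but the groups overlapped because ABL replicate 1 lay above CONT replicate 2. Thinned shares in library order were 31.0%, 18.1%, 17.4% and 15.7%, beside 2.46% to 4.08% in hematopoietic cells, and unthinned shares 41.3%, 30.9%, 41.0% and 25.0%. A reticular-like cell with a Ccl2 UMI held a Ccl7 UMI more often than one without: in 46.5% against 20.2% of cells in CONT and 25.9% against 16.3% in ABL of replicate 1, and in 32.0% against 9.32% and 41.2% against 8.98% in replicate 2. These shares describe cells of 1 library each, thinned to the same depth.

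Both genes were unevenly spread over the reticular-like cells. The 10% of cells with the most Ccl2 held 68.0%, 80.8%, 66.2% and 85.2% of its UMIs in library order, more in each ABL library than in either CONT library. Among the reticular-like clusters of replicate 1, Ccl2 in CONT ranged from 191 to 1831 CPM, and the cluster at 1831 stood at 252 in ABL while another at 741 stood at 666. The unnamed cluster with reticular markers held Ccl2 at 1619 in CONT and 798 in ABL. In replicate 2, 1 cluster of 583 cells had more Ccl2 in ABL (66 cells) than in CONT (517 cells), at 1347 against 975. The clusters were thus not uniformly lower in ABL, although the ABL values rest on few cells.

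Outside reticular-like cells, Ccl2 and Ccl7 were found in monocyte/macrophage-like cells and in periosteal/fibroblast-like cells. Ccl2 in monocyte/macrophage-like cells was at 231 and 148 in CONT and ABL of replicate 1 and at 200 in ABL of replicate 2, and Ccl7 at 42.6, 135 and 147. This class was not the same mix in each library: 170 of its 192 cells in CONT replicate 1 were in a cluster led by Ctss and Ms4a4c, 114 of 158 in ABL replicate 1 in one led by C1qa, and 82 of 262 in ABL replicate 2 in one led by the osteoclast genes Acp5 and Atp6v0d2. In periosteal/fibroblast-like cells of replicate 2, Ccl2 was at 133 in CONT (37 cells) and 252 in ABL (524 cells), and Ccl7 at 94.5 and 233. By cluster, Ccl7 was at 131 in CONT and 147 in ABL in the cluster with most CONT cells, and at 0 in the 10 CONT cells and 242 in the 471 ABL cells of the other, so no change within the class is read. The same class of replicate 1 held 2 and 5 Ccl7 UMIs and 4 and 1 Ccl2 UMIs in 8 and 11 cells. For Ccl2 the thinned shares, 10.8% in CONT and 8.97% in ABL (29.7% and 14.7% unthinned), in replicate 2 went against the levels, and no order is read either. Pre-osteoblast-like cells had lower levels, with Ccl2 at 94.3 and 40.0 in CONT and ABL of replicate 1 and at 19.0 in ABL of replicate 2. The free RNA estimate for all mesenchymal cells was 67.8, 39.8 and 17.0 in these libraries. Both ABL values were thus close to this estimate, and no order between CONT and ABL is read.

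In replicate 2, Ccl2 and Ccl7 UMIs of mesenchymal cells came almost wholly from reticular-like cells in CONT and from more classes in ABL. Reticular-like cells held 98.3% of mesenchymal Ccl2 UMIs in CONT and 35.7% in ABL, and 97.0% and 15.6% of Ccl7 UMIs. Periosteal/fibroblast-like cells, which were 29.0% of mesenchymal cells in ABL replicate 2, held 71.4% of its Ccl7 UMIs. In replicate 1 reticular-like cells held 68.8% of Ccl2 UMIs in CONT and 54.0% in ABL, and unnamed cells 30.6% and 43.3%. The level over all mesenchymal cells pools these classes, and Ccl2 was there at 993 and 291 in CONT and ABL of replicate 1 and at 751 and 161 in replicate 2.

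**Figure D2:**
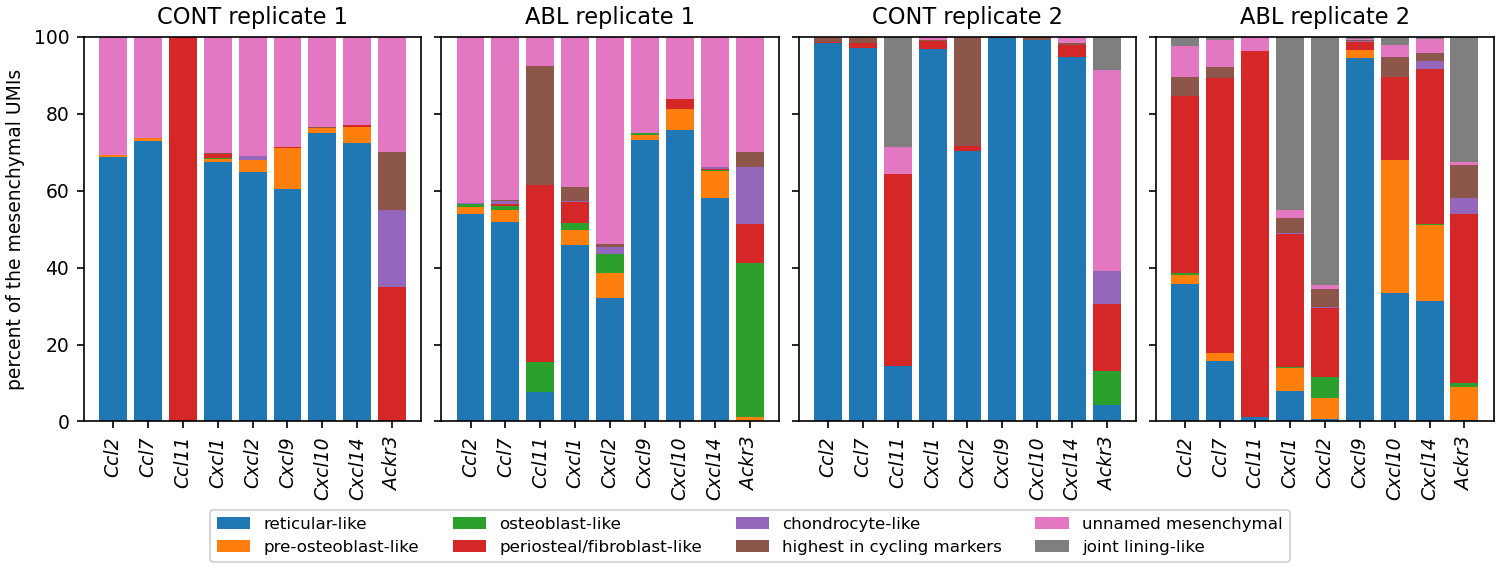
Share of the mesenchymal UMIs of each gene (percent, 0 to 100) that fell in each class of cells, as stacked bars for CONT and ABL of replicates 1 and 2. Reticular-like cells held 98.3% of Ccl2 UMIs in CONT replicate 2 and 35.7% in ABL replicate 2.

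Ccl11, known as eotaxin, was almost absent from reticular-like cells, with 0, 1, 2 and 1 UMIs in library order. No fold is given at such counts. Over all mesenchymal cells there were 37, 13, 14 and 82 UMIs, or 5.33 and 2.15 CPM in replicate 1 and 0.507 and 3.20 in replicate 2, in opposite directions. In CONT replicate 1 all 37 UMIs lay in 8 periosteal/fibroblast-like cells, at 744 CPM. The same class was at 87.3 in ABL replicate 1 (11 cells), 9.88 in CONT replicate 2 and 10.4 in ABL replicate 2, where it held 95.1% of the mesenchymal Ccl11 UMIs. The levels of this class in replicate 1 rest on few cells.

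Cxcl1, the neutrophil attractant that acts through CXCR2, was at 593 and 416 CPM in reticular-like cells of CONT and at 248 and 278 in ABL. The groups did not overlap, and ABL was 2.4-fold lower in replicate 1 and 1.49-fold lower in replicate 2 (fitted log2 change -1.02, SE 0.34). Thinned shares of cells in library order were 38.6%, 23.4%, 29.6% and 23.8%, beside 2.46% to 4.49% in hematopoietic cells, and unthinned shares 54.3%, 39.5%, 53.5% and 39.5%. Joint lining-like cells of ABL replicate 2 were at 1247 CPM in 196 cells, of which 46.9% held a UMI after thinning and 62.2% before. The leading gene of this class was Prg4, which encodes lubricin. Periosteal/fibroblast-like cells were at 1005 and 989 in the 8 and 11 cells of replicate 1, whose counting intervals overlapped, and at 302 and 415 in CONT and ABL of replicate 2, where the thinned shares of 29.7% and 24.6% (62.2% and 42.4% unthinned) went the other way and no order is read. In ABL replicate 2, joint lining-like cells held 45.1% of mesenchymal Cxcl1 UMIs and periosteal/fibroblast-like cells 34.5%. The level over all mesenchymal cells was closer between the groups in replicate 2 (403 and 353) than in replicate 1 (587 and 207).

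Cxcl2, also a ligand of CXCR2, was low in reticular-like cells, at 27.4 and 14.7 in CONT and ABL of replicate 1 and at 5.93 and 3.51 in replicate 2. An estimate from empty droplets gave 30.7, 19.1, 0.774 and 6.79 CPM from free RNA alone in library order. The measured level was below this estimate in 3 of the 4 libraries, so no level above free RNA is read there. In ABL replicate 2 the estimate rests mostly on erythroid markers. Thinned shares were 0.767% to 6.51% (2.47% to 11.5% unthinned). Hematopoietic cells, at 6.04% to 14.2%, are no background for this gene, since myeloid cells express it. Erythroid-like cells gave thinned shares of 3.25% and 2.74% in CONT and ABL of replicate 1 (15.2% and 10.3% unthinned) at median depths of 10574 and 12916 UMIs. Granulocytic-like cells held the gene at 180, 187, 561 and 59.0 CPM in library order, and monocyte/macrophage-like cells at 57.9 in CONT replicate 1 and at 96.4 and 209 in ABL. Among mesenchymal cells, joint lining-like cells of ABL replicate 2 reached 329 CPM, with a UMI in 19.9% of thinned cells and 26.5% of unthinned cells. They held 64.5% of the mesenchymal Cxcl2 UMIs of that library. The mesenchymal level was 7.93 in CONT and 65.0 in ABL of replicate 2 but 28.2 and 17.5 in replicate 1, so its direction turns on replicate 2. A cluster of 21 cells of CONT replicate 1 reached 1073 CPM from 98 UMIs, with a UMI in 4.76% of cells after thinning and 9.52% before. T and NK markers gave it its highest score, but Il4, Mcpt8 and Prss34, known from basophils, stood among its leading genes beside Ccl5 and Gzma, so it is given no name here.

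**Figure D3:**
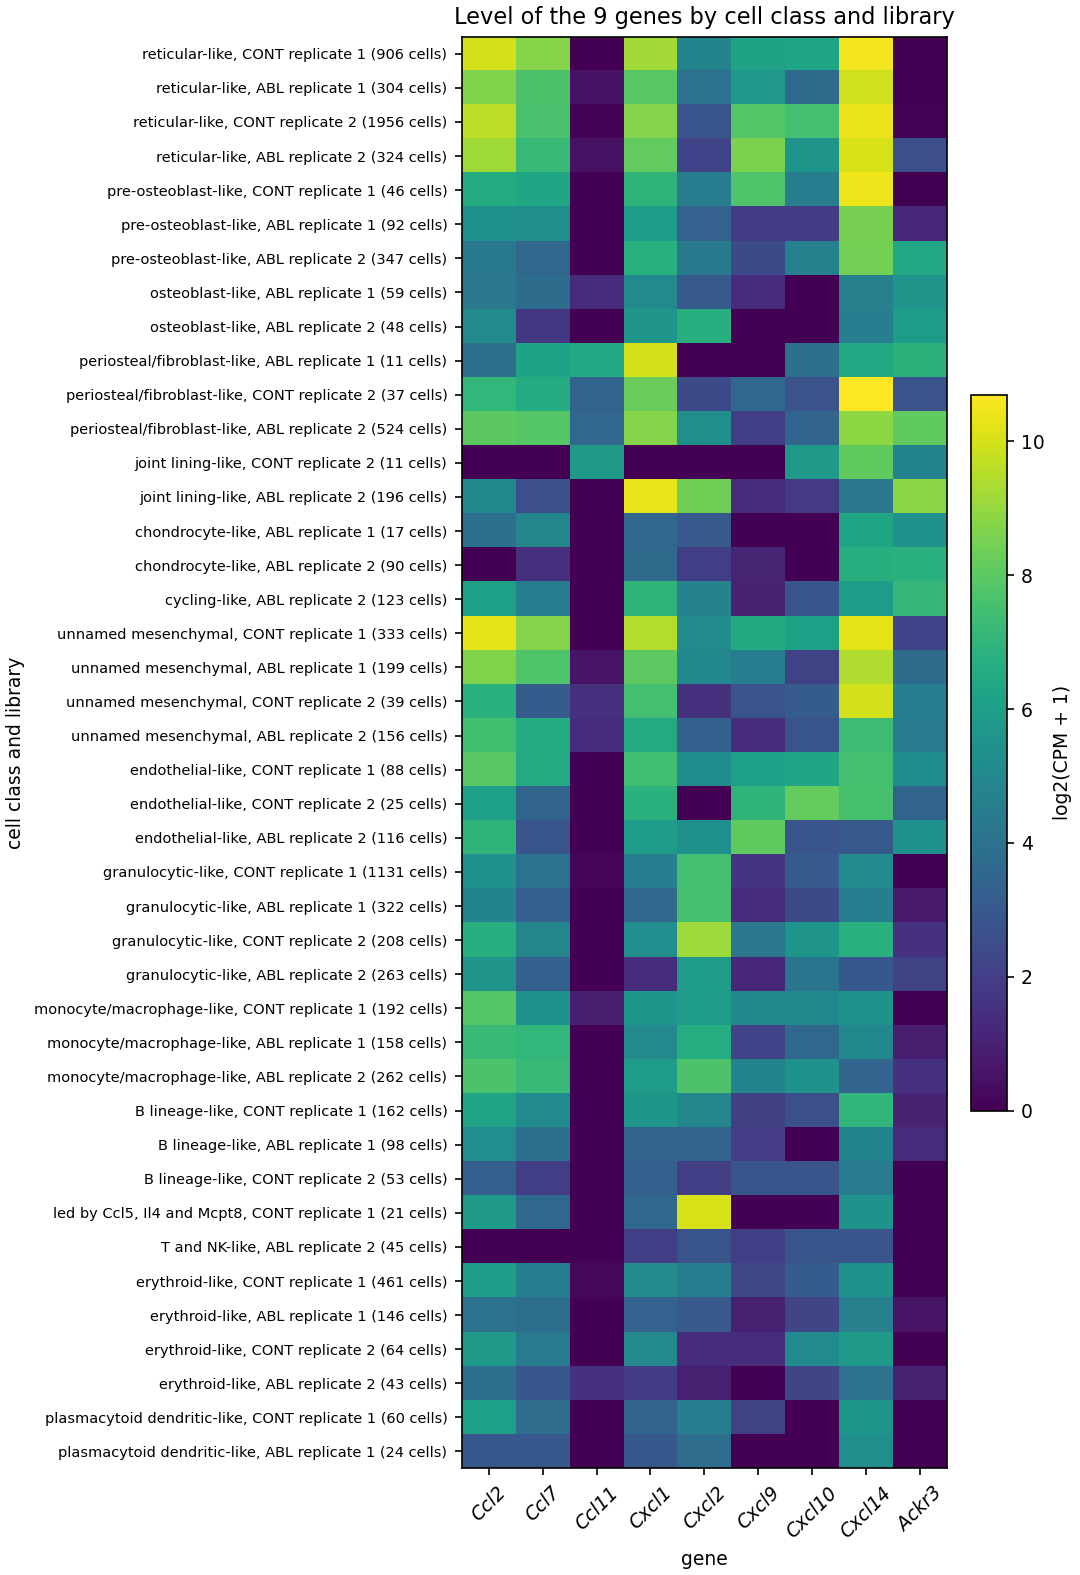
Level of each gene (columns) in each class of cells and library with at least 10 cells (rows), as log2 of CPM plus 1, shown by colour. Ccl2 and Ccl7 are high in reticular-like cells, Cxcl2 in granulocytic-like and joint lining-like cells and Ackr3 in joint lining-like cells of ABL replicate 2, at 462 CPM. The row named by Ccl5, Il4 and Mcpt8 is the cluster of 21 cells that is given no class.

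Cxcl10, an interferon-inducible ligand of CXCR3, had the largest fitted difference of the 7 genes that passed the filter in reticular-like cells. It was at 79.7 in CONT and 12.1 in ABL of replicate 1, 6.6-fold lower, and at 181 and 46.0 in replicate 2, 3.93-fold lower. Both ABL libraries were below both CONT libraries, with a fitted log2 change of -2.37 (SE 0.26). The signal was carried by few cells. Thinned shares in library order were 5.63%, 1.64%, 7.41% and 3.7%, beside 1.48%, 0.651%, 4.31% and 2.77% in hematopoietic cells of the same libraries, and unthinned shares were 8.94%, 4.61%, 16.3% and 6.17%. The largest count in 1 cell was 453 UMIs, in CONT replicate 2, where a UMI of the gene was found in 16.3% of cells and the 10% with the most held 97.2% of them.

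Cxcl9, its neighbour and a ligand of the same receptor, was at 71.1 in CONT and 50.5 in ABL of replicate 1, 1.41-fold lower. In replicate 2 it was at 226 in CONT and 385 in ABL, 1.71-fold higher. The groups overlapped and the fitted log2 change was 0.08 (SE 0.29). Thinned shares in library order were 6.18%, 3.29%, 7.00% and 9.57%, beside 0.521% to 1.31% in hematopoietic cells, and unthinned shares were 10.7%, 6.25%, 18.1% and 15.4%. As with Cxcl10, few cells held the gene, with up to 847 UMIs in 1 cell of CONT replicate 2. Endothelial-like cells also held both genes, Cxcl9 at 69.5 and 123 in CONT and 272 in ABL replicate 2, and Cxcl10 at 76.2 and 289 in CONT and 5.98 in ABL replicate 2. In this class too, Cxcl9 was higher and Cxcl10 lower in ABL replicate 2 than in CONT. The values rest on 116 cells with 6 Cxcl10 UMIs in ABL replicate 2, beside 25 cells in CONT replicate 2. ABL replicate 1 had 0 such cells, so no second pair can be compared.

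Much of both signals in replicate 2 lay in 1 cluster of 34 reticular-like cells, 18 of 1956 (0.92%) in CONT and 16 of 324 (4.94%) in ABL, whose leading genes were Cxcl10, Cxcl9, Rsad2, Ifit1, Fabp4 and Isg15. The cluster was singled out after these values were seen, as the mesenchymal cluster of replicate 2 with the highest mean Cxcl10 count. It held 55.5% of the reticular-like Cxcl10 UMIs and 39.3% of the Cxcl9 UMIs in CONT, and 60.2% and 73.1% in ABL. Inside it, Cxcl10 was at 8456 CPM in CONT and 361 in ABL, Cxcl9 at 7480 and 3678, and Ccl2 at 3072 and 107. With the cluster left out, Cxcl9 was at 139 in CONT and 112 in ABL, which is the direction of replicate 1, and Cxcl10 at 81.4 and 19.8. The higher Cxcl9 of ABL in replicate 2 was thus not seen without these 34 cells, whereas the lower Cxcl10 was. As the cluster was chosen on Cxcl10 itself, this describes where the UMIs lay and supports neither direction. These sums rest on few cells, as 1 cell of ABL held 32 of the 118 Cxcl10 UMIs and another 378 of the 989 Cxcl9 UMIs.

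**Figure D4:**
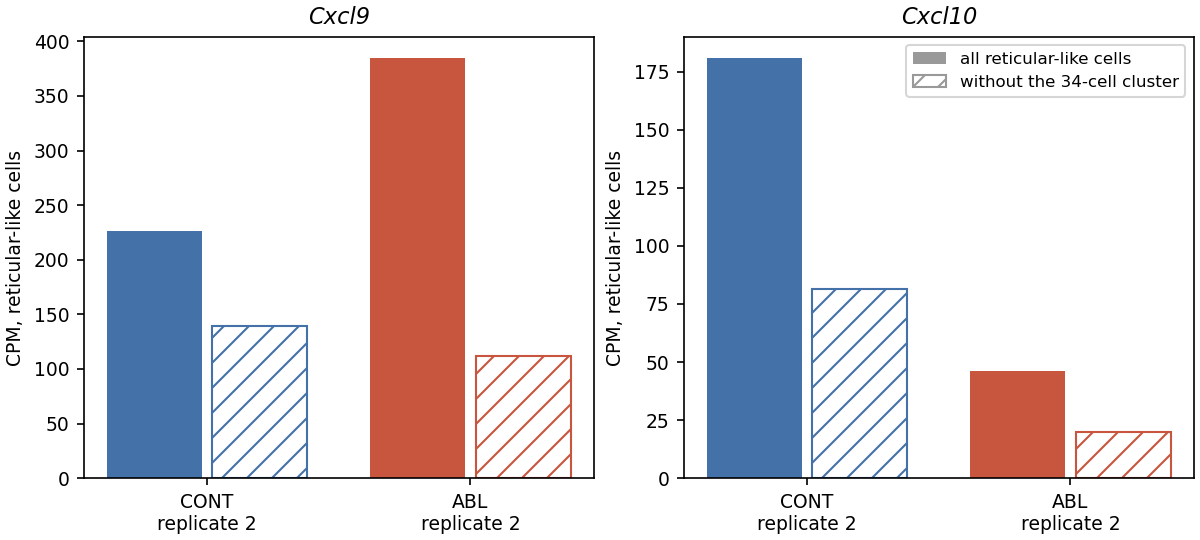
Cxcl9 and Cxcl10 in reticular-like cells (CPM) in CONT and ABL of replicate 2, as filled bars with all cells and hatched bars without the cluster of 34 cells. Without it Cxcl9 is at 139 in CONT and 112 in ABL, and Cxcl10 at 81.4 and 19.8.

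Cxcl9 and Cxcl10 shared cells more often than the cells without Cxcl9 would give. A Cxcl10 UMI was found in 19.6% of thinned reticular-like cells with a Cxcl9 UMI and in 4.71% of those without in CONT replicate 1, and in 25.5% and 6.05% in CONT replicate 2. Cells with a Cxcl9 UMI also held more UMIs of the 22 interferon response genes, 6.71 against 2.98 per cell in CONT replicate 1, 7.50 against 2.84 in CONT replicate 2 and 13.5 against 2.74 in ABL replicate 2. Libraries with fewer than 20 thinned cells holding a gene are left out. Cells with a Ccl2 UMI held more UMIs of the 19 NF-kB response genes, in library order 17.2 against 13.2, 11.9 against 8.64, 15.6 against 10.9 and 13.9 against 9.40. Their interferon UMIs were 3.30 against 3.15, 3.57 against 3.71, 3.46 against 3.00 and 4.46 against 3.59. Cells with a Cxcl10 UMI also held more NF-kB UMIs, 17.6 against 14.7 in CONT replicate 1 and 16.2 against 12.3 in CONT replicate 2. For Cxcl9 these were 14.8 against 14.9 and 12.8 against 12.6, and 8.26 against 10.6 in ABL replicate 2.

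Cxcl14, a chemokine of epithelia and stroma whose receptor is not settled, was broadly spread over reticular-like cells. It was at 1458 and 1355 CPM in CONT and at 961 and 1059 in ABL, with no overlap of the groups and ABL 1.52-fold and 1.28-fold lower (fitted log2 change -0.58, SE 0.43). Thinned shares in library order were 87.4%, 71.7%, 81.3% and 72.8%, beside 1.31% to 7.79% in hematopoietic cells, and unthinned shares 96.6%, 93.8%, 98.1% and 89.2%. The 10% of cells with the most held 29.8% to 35.3% of its UMIs, beside 61.6% or more for Ccl2, Ccl7 and Cxcl1, each of which was also found in more than 10% of cells in every library. In pre-osteoblast-like cells Cxcl14 was at 1389 and 357 in CONT and ABL of replicate 1 and at 350 in ABL of replicate 2. In periosteal/fibroblast-like cells it was at 683 and 87.3 in the 8 and 11 cells of CONT and ABL in replicate 1. In replicate 2 the class was at 1661 and 465 but compares different clusters. Within them Cxcl14 was at 889 (10 cells) and 403 in the cluster led by Clec3b and at 1962 (27 cells) and 1048 in that led by Dio2. Osteoblast-like cells were at 23.2 to 31.3 in the 3 libraries with more than 2 such cells, from 3 and 17 UMIs in CONT and ABL of replicate 1 and 20 in ABL of replicate 2. The free RNA estimate for all mesenchymal cells was 53.0, 44.9 and 23.9 in these libraries, so no level above free RNA is read.

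Ackr3 had few or no UMIs in reticular-like cells, with counts of 0, 0, 1 and 13 in library order. The counts of 0 in replicate 1 allow up to 0.647 CPM in CONT and 1.29 in ABL (3 counts). The 13 UMIs amount to 5.07 CPM, below the free RNA estimate of 10.4. As that estimate rests mostly on erythroid markers, no level above or below free RNA is read. Over all mesenchymal cells, where the classes are pooled, Ackr3 was at 2.88 in CONT and 13.2 in ABL of replicate 1, 4.59-fold higher. In replicate 2 it was at 0.833 and 182, 218-fold higher. The groups did not overlap (fitted log2 change 5.07, SE 1.24), but the size differed between replicates far beyond counting error. Joint lining-like and periosteal/fibroblast-like cells, which held 32.5% and 43.9% of the UMIs in ABL replicate 2, numbered 0 (none named) and at most 11 in each library of replicate 1.

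By class, Ackr3 in ABL replicate 2 was highest in joint lining-like cells, at 462 CPM, followed by periosteal/fibroblast-like cells at 272. Next came cycling-like cells at 137 and chondrocyte-like cells at 113, whose counting intervals overlapped. Pre-osteoblast-like cells were at 82.0, osteoblast-like cells at 59.2 and endothelial-like cells at 39.9, and among these last 3 each overlapped its neighbour in the order, while pre-osteoblast-like cells were below chondrocyte-like cells. The pre-osteoblast-like cells of ABL replicate 2 were led by Msmp, Fmod and Lsp1 and those of replicate 1 by Wif1, Spp1 and Dmp1, so the name covers different cells in the replicates. These positions rest on 1 library. Thinned shares were 54.1% of joint lining-like, 33.2% of periosteal/fibroblast-like, 21.1% of cycling-like and 14.1% of pre-osteoblast-like cells, beside at most 0.308% of hematopoietic cells in any library. Unthinned shares were 91.3%, 76.3%, 71.5% and 49.9%. In replicate 1, Ackr3 was at 141 and 116 CPM in the 8 and 11 periosteal/fibroblast-like cells of CONT and ABL and at 45.6 in 59 osteoblast-like cells of ABL. Pre-osteoblast-like cells of ABL held 1 UMI in replicate 1 and 401 in replicate 2. In periosteal/fibroblast-like cells of replicate 2 the gene was at 5.64 in CONT (4 UMIs in 37 cells) and 272 in ABL, which were mostly different clusters. In the cluster led by Dio2 there were 4 UMIs in 27 CONT cells and 66 in 53 ABL cells (7.85 and 91.8), and in that led by Clec3b 0 in 10 CONT cells and 1976 in 471 ABL cells.

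The ligand and the other receptor of this axis differed from Ackr3 in where they were found. Cxcl12 was at 17562 and 17238 CPM in reticular-like cells of CONT and at 15876 and 14920 in ABL, and its change did not pass the test (log2 change -0.28, SE 0.66, adjusted p = 0.912, edgeR's quasi-likelihood test with Benjamini-Hochberg adjustment). In periosteal/fibroblast-like cells Cxcl12 was at 2171 and 1323 in the 8 and 11 cells of CONT and ABL in replicate 1, and at 4768 and 340 in replicate 2, where most cells of CONT and of ABL were in different clusters. Cxcr4 was at 0.390 to 6.04 in reticular-like cells and at 106 to 144 in granulocytic-like cells. It was at 155 to 291 in monocyte/macrophage-like and at 158 to 249 in B lineage-like cells of the libraries that held these classes. Receptors of the chemokines were read in the same way and named for their known ligands after their values were seen. Ccr2 was at 509 and 212 in monocyte/macrophage-like cells of CONT and ABL of replicate 1 and at 35.9 in ABL of replicate 2, and at or below 3.23 in reticular-like cells. Cxcr2 was at 71.8, 97.4, 369 and 117 in granulocytic-like cells in library order. Cxcr3 was at 98.8 in T and NK-like cells of ABL replicate 2 and had no UMI in reticular-like cells, which allows up to 0.116 to 1.29 (3 counts per library). Ackr4, a scavenger of other chemokines, was the receptor of the list with the highest level in reticular-like cells, at 195 and 186 in CONT and 243 and 163 in ABL.

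Genes outside the 9 were tested as 5 lists, with edgeR's quasi-likelihood test and Benjamini-Hochberg adjustment over all genes. The lists were chosen with earlier results of these data known. In reticular-like cells 254 of 11015 genes were higher in ABL (2.31%) and 245 lower (2.22%), and the median log2 change of all genes was -0.01. The calls turned on the replicate as a block: without it edgeR called 0 genes, with 280 at an unadjusted p under 0.05, while DESeq2 with the block called 81 higher and 71 lower. Without normalization by trimmed means, 66.3% of calls were higher in place of 50.9%.

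**Figure D5:**
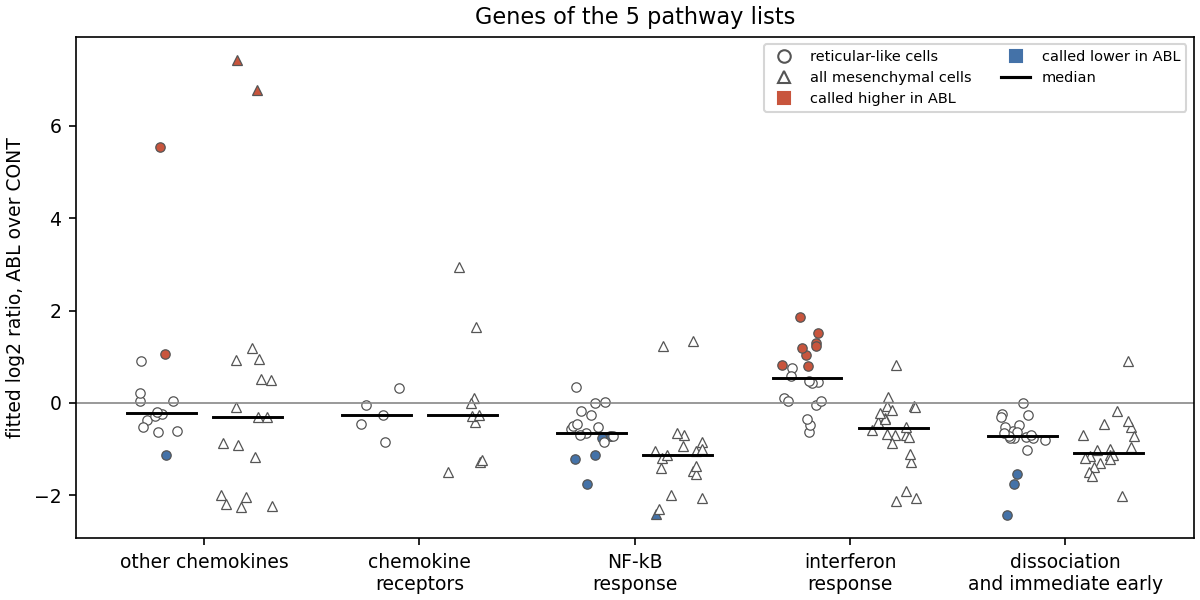
Fitted log2 change of ABL over CONT (y axis) of each gene tested in the 5 lists (x axis), as circles for reticular-like cells and triangles for all mesenchymal cells, with coloured points for genes that passed an adjusted p of 0.05 and a line at the median of each list. In reticular-like cells the medians were -0.65 for the NF-kB list and 0.53 for the interferon list.

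Of the 19 NF-kB response genes, 5 fell in reticular-like cells and the list's median was -0.65, with 17 fitted below 0. Il6, an inflammatory cytokine, was at 78.9 and 139 CPM in CONT and 19.8 and 51.8 in ABL (log2 change -1.77, SE 0.25, adjusted p = 5.08e-10, edgeR). Icam1, an adhesion receptor for leukocytes, was at 106 and 71.0 in CONT and 48.3 and 33.5 in ABL (-1.22, SE 0.24, adjusted p = 3.86e-05, edgeR). The others were Zc3h12a (-1.14), an RNase that degrades inflammatory transcripts, Tnfaip3 (-0.77), an inhibitor of NF-kB, and Birc3 (-0.73), an inhibitor of apoptosis. Zc3h12a and Tnfaip3 are themselves known as brakes on this pathway. DESeq2 called 3 of the list, as did edgeR without normalization by trimmed means, at clustering resolution 1.5, with all variable genes in the clustering and without the cluster of 34 cells. Without the block edgeR called 0, with 3 at an unadjusted p under 0.05.

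The dissociation and immediate early list moved with these genes. All 20 of its genes were fitted below 0, with a median of -0.71, and 3 fell: Atf3 (-1.55), Hspa1a (-1.75) and Hspa1b (-2.44). Hspa1a and Hspa1b are near-identical copies whose reads may be shared, so their separate values are uncertain. The list's summed level was 21584 and 23242 CPM in CONT and 14943 and 15341 in ABL. Its part in the lower chemokine levels was not tested. Cells with a Ccl2 UMI held 47.3, 48.3 and 31.9 UMIs of this list in CONT replicate 1, CONT replicate 2 and ABL replicate 2, against 44.9, 47.7 and 32.2 in cells without, but 40.5 against 31.1 in ABL replicate 1. Cells with a Cxcl1 UMI held more of them than cells without in all 4 libraries, with 44.1 against 29.5 in ABL replicate 1 as the widest gap relative to its size and 32.8 against 31.9 in ABL replicate 2 as the narrowest.

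The interferon response list went the other way. Of 20 genes tested, 8 rose in reticular-like cells, the median was 0.53 and 16 were fitted above 0. The other 4 were fitted below 0, with 1 lower at an unadjusted p under 0.05. Ifit1, an antiviral protein that binds foreign RNA, was at 13.6 and 11.7 CPM in CONT and 33.2 and 63.5 in ABL (log2 change 1.85, SE 0.26, adjusted p = 1.21e-10, edgeR). Irf7, a transcription factor of the interferon response, was at 30.6 and 18.9 in CONT and 50.9 and 96.6 in ABL (1.51, SE 0.24, adjusted p = 4.22e-08, edgeR), and Isg15, a ubiquitin-like protein, at 98.3 and 73.8 in CONT and 179 and 280 in ABL (1.30). The others were Ifit3 (1.24), Usp18 (1.19), Gbp3 (1.04), Xaf1 (0.81) and Oasl2 (0.79). All 8 had both ABL libraries above both CONT libraries, while Cxcl10, itself known as an interferon-inducible gene, was lower in both. The count depended on the cluster described above: without its 34 cells 4 of 19 rose, and DESeq2 called 3 with them. Without the block edgeR called 0, with 7 at an unadjusted p under 0.05.

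Among 29 other chemokines, 14 could be tested in reticular-like cells, with a median of -0.22. Ccl9, a ligand of CCR1, rose (log2 change 1.05, SE 0.25, adjusted p = 1.86e-03, edgeR), with 73.3 CPM in ABL of replicate 2 as its highest value, but in replicate 1 it was at 28.9 in CONT and 22.9 in ABL. Ccl21a was called higher at 0.862 and 0 CPM in CONT and 3.45 and 12.5 in ABL, but it has near-identical copies and its count is uncertain. Cx3cl1, the membrane-bound chemokine fractalkine, fell from 103 and 106 in CONT to 56.1 and 46.8 in ABL (-1.14, SE 0.24, adjusted p = 1.80e-04, edgeR). DESeq2 called 0 of the list higher, with 0 at an unadjusted p under 0.05, and 1 lower, so the calls of Ccl9 and Ccl21a were lost there. With free RNA subtracted, edgeR called 1 of 10 tested genes higher and 2 lower, and with the study's cell filter alone 1 and 1. Ccl9 and Ccl21a were among the leading genes of a monocyte/macrophage-like and an endothelial-like cluster of ABL replicate 2. Free RNA was estimated at 11.98% of reticular-like UMIs in that library, mostly from erythroid markers. Of 22 chemokine receptors 5 could be tested and edgeR called 0, with 0 at an unadjusted p under 0.05 and 0 by DESeq2.

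Over all mesenchymal cells, where the classes are pooled, edgeR called 136 of 13729 genes higher (0.991%) and 33 lower (0.24%), and 0 without the block, with 1218 at an unadjusted p under 0.05. These counts moved with small changes in the cells, to 315 and 136 with called doublets left out, and DESeq2 gave 402 and 239. Without normalization by trimmed means 67.5% of calls were higher in place of 80.5%. Il6 (-2.40, adjusted p = 0.0352, edgeR) was the 1 gene of the NF-kB list that fell there. Ccl8 (6.77) and Ccl21a (7.44) rose, although Ccl8 was at 1.65 and 11.7 CPM in ABL and 0.144 and 0.0362 in CONT. Of 22 interferon genes edgeR called 0, with 4 lower at an unadjusted p under 0.05 and 3 lower by DESeq2, and the median was -0.55, the opposite sign to that in reticular-like cells. Of the dissociation list edgeR called 0, with 3 lower at an unadjusted p under 0.05 and 3 lower by DESeq2. Of 10 receptors tested edgeR called 0, with 1 in each direction at an unadjusted p under 0.05 and 0 by DESeq2.

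The genes whose pattern was most like that of each of the 9 were found over 42 sums of a class in a library, from 15 classes, by Pearson's r of log2 levels among 8436 genes. These are descriptions, as the sums share libraries and depth. Ccl2 was most like Ccl7 (0.858), Vcam1 (0.854), an adhesion molecule of reticular cells, and Lpl (0.819), and Ccl7 was most like Ccl2, Lpl (0.82) and Ptx3 (0.807). Cxcl14 was most like Mme (0.933), Serpine2 (0.922) and Ism1 (0.902). Cxcl9 was most like Serpina3f (0.888), Pparg (0.845) and Serpina3g (0.822), and Cxcl10 like Arhgap26 (0.725), Picalm (0.703) and Sult1a1 (0.687). Cxcl1 was most like Sned1 (0.871), Tmem159 (0.869) and Wisp2 (0.844), and Ackr3 like Eml1 (0.883), Has1 (0.864), a hyaluronan synthase, and Sema3c (0.859). Cxcl2 was most like genes of myeloid cells, Lilr4b (0.778), Ccr1 (0.752) and Il1b (0.738). The likeness of Ccl11 to Scg3 (0.981), Entpd2 (0.911) and Tmod2 (0.908) rests on the few sums in which Ccl11 was detected.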

How the data were processed

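Single-cell 3′ RNA-seq of sorted tdTomato+ cells was measured in 2 CONT and 2 ABL libraries. The deposited values are unfiltered UMI counts per gene and barcode, made by the authors with Cell Ranger (version not given in the sources used here, file header software version 3.0.0) on mm10 with reporter sequences added. No count was normalized before deposit. Barcodes were kept at the study's limits (from 500 genes up and mitochondrial UMIs up to 20% for version 2, 1000 genes and 15% for version 3) if they also held over 1/10 of the UMIs at percentile 99 of the 3000 barcodes with most UMIs. Libraries were clustered in Seurat 5.3.0 (2000 variable genes without the 9 genes and the lists, 30 components, resolution 0.8), and mesenchymal cells were integrated per replicate. A class was named from markers of which at least 3 were detected, and other clusters stayed unnamed. Clustering was run on 1 thread with the Haswell kernel of OpenBLAS. The Sandybridge kernel, which changes only rounding, moved 2 of 9833 cells to another broad class and 345 of 5871 mesenchymal cells to another or no named class, and was added as an alternative after the first results were seen to change with the kernel. Doublets were called by Scrublet (scanpy 1.11.5), at 84, 8, 2 and 25 cells in CONT 1, ABL 1, CONT 2 and ABL 2, and were kept. Median depth was 5714 to 12896 UMIs a cell. Intervals (exact 95% Poisson or binomial) and floors of 3 counts cover counting error only.

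UMI counts summed per library and class were tested with edgeR 4.0.16 (quasi-likelihood, TMM, filterByExpr, replicate as a block, Benjamini-Hochberg over all genes, adjusted p under 0.05) in R 4.3.3. The fit without the block and DESeq2 1.42.0 were alternatives. The block follows the study's paired femurs and the 2 chemistries. Same-numbered libraries deviated from their group means with a correlation of 0.764 in reticular-like and 0.366 in all mesenchymal cells, but the Xist values of replicate 2 go against a shared origin there. P-values and standard errors rest on these 2 pairs of pooled libraries and on a spread that edgeR moderates across all genes. A small p-value therefore does not show that the pairs agreed, as with Ccl9, called higher but lower in ABL of replicate 1. An exact permutation test of 2 against 2 cannot go below p = 0.333. On simulated counts with 200 genes changed at a log2 fold of 2, 94% were recovered in reticular-like cells (10818 genes, 10 false calls) and 30.5% in all mesenchymal cells (13467 genes, 4 false calls). Every simulated gene had the same dispersion (0.0332 and 0.141) and the same change in both pairs. The shares do not carry over to the real fits, where genes differ in spread and pairs can disagree.

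The 9 genes and the lists were chosen with earlier results of these data known. From each list the text names genes past the threshold, at most 8 per direction by size, plus Cxcl12 and Cxcr4, and for each of the 9 genes the 3 most similar in pattern. Cxcl11 and Cebpd of the lists had no row. Free RNA was estimated from droplets with at most 300 UMIs, scaled by granulocytic and erythroid markers, at 0.89% to 12.0% of reticular-like UMIs. Promoters are RefSeq sequences on GRCm38.p6 and gene positions GENCODE on GRCm38.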

Additional observations from a re-analysis of the deposited data

Results flagged for a closer look

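Ccl7 differed in direction between reticular-like cells and the sum of all hematopoietic cells. In reticular-like cells its log2 ratio of ABL to CONT was -1.05 in replicate 1 and -0.42 in replicate 2, whereas in all hematopoietic cells it was 0.57 and 1.61. This was 1 of 23 pairs of classes compared over the 9 genes, and the difference between the classes was not tested. Ccl7 in hematopoietic cells had levels (CPM) of 20.4 and 30.4 in CONT and ABL of replicate 1 and of 24.5 and 74.6 in replicate 2. The sum pools classes with ratios of both signs: the ratio was -0.81 and -1.68 in granulocytic-like cells and -0.77 and -1.69 in erythroid-like cells, and 1.67 in monocyte/macrophage-like cells of replicate 1. Ccl7 in empty droplets was at 243, 197, 232 and 64.7 in library order. These droplets hold free RNA alone, which is only a part of a cell's UMIs, so their level is no threshold for cells. The ratio in empty droplets was -0.30 and -1.84. The part of free RNA was not tested, and no change within granulocytic-like or erythroid-like cells is read. Monocyte/macrophage-like cells were 192 of 2027 hematopoietic cells in CONT and 158 of 768 in ABL of replicate 1, and 0 of 325 and 262 of 613 in replicate 2. The 0 is an outcome of naming. A granulocytic-like cluster of 94 cells in CONT replicate 2 had F13a1, Ms4a6c and Ccr2 among its leading genes.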

How the results depend on the processing

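The calls across genes turned on the replicate block. In reticular-like cells 254 genes were higher and 245 lower with it and 0 and 0 without the replicate block. In all mesenchymal cells 136 and 33 became 0 and 0. Of the list genes, 10 higher and 9 lower in reticular-like cells and 2 and 1 in all mesenchymal cells became 0 in each case. DESeq2 gave 81 higher and 71 lower in reticular-like cells (3 list genes higher), and 402 and 239 in all mesenchymal cells (14 list genes lower). Without the 34-cell cluster, an alternative chosen after seeing the data, 6 list genes were higher in reticular-like cells and all mesenchymal cells gave 227 and 73 (3 list genes lower). The other planned settings with the block moved no count of reticular-like cells by over 1.5 times, although 344 were higher and 175 lower there without TMM. They moved counts over all mesenchymal cells: 583 and 281 without TMM (9 list genes lower), 7 and 0 without the filter on low counts (1 list gene higher and 0 lower), 577 and 368 with the study's cell filter alone (10 list genes lower), 283 and 112 at resolution 0.4 (7 lower), 315 and 136 without doublets (7 lower), 63 lower with free RNA subtracted (1 list gene higher and 3 lower), and 1 list gene higher with all variable genes in the clustering. Another linear algebra kernel in the clustering, also chosen after seeing the data, gave 257 and 239 in reticular-like cells and 136 and 33 in all mesenchymal cells. With each library left out in turn, without the block and with the lone library assumed to vary like the other group, calls in reticular-like cells ranged from 0 to 172 higher and from 0 to 66 lower (list genes 0 to 2 and 0 to 2), and in all mesenchymal cells from 0 to 318 and from 0 to 75 (list genes 0 to 4 and 0 to 2). Reticular-like cells gave 39 higher and 60 lower without ABL replicate 1, 11 and 4 without ABL replicate 2 and 172 and 66 without CONT replicate 1. All mesenchymal cells gave 318 and 75 without ABL replicate 1, 5 and 0 without ABL replicate 2 and 0 and 0 without CONT replicate 1. Without CONT replicate 2 both sets of cells gave 0 and 0.

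Of the log2 ratios of the 9 genes, 260 kept their direction and size within the spread, 29 moved and 14 reversed. The spread is the standard deviation of the gene's ratios in the 2 replicates, so it is wide where these disagree. For Ackr3 over all mesenchymal cells, 2.20 and 7.77 both lay within it around 5.07. A ratio of 1 replicate alone lies within it almost by construction, so the 260 are no measure of stability. Those of Ccl2, Ccl7, Cxcl1, Cxcl10 and Cxcl14 stayed below 0 in reticular-like cells under all alternatives run, with Cxcl10 between -3.61 and -1.54. Cxcl9 in reticular-like cells, at 0.08, reversed to -0.10 and -0.17 at resolutions 0.4 and 1.5, to -0.11 with all variable genes in the clustering, to -0.49 without the 34-cell cluster, to -0.16 and -1.74 without CONT replicate 1 or ABL replicate 2, and to -0.49 in replicate 1 alone, and was 0.77 in replicate 2 alone. Cxcl2 reversed to 0.45 there without CONT replicate 1. Over all mesenchymal cells Ccl11 reversed to -0.04 without the replicate block, -0.96 and -0.49 without CONT or ABL replicate 2 and -1.31 in replicate 1 alone (2.66 in replicate 2 alone), and Cxcl2 to -0.13 without ABL replicate 2 and -0.69 in replicate 1 alone (3.03 in replicate 2 alone). The causes were not tested. Depth limits the genes with few UMIs, Ccl11 and Ackr3 in reticular-like cells, to upper bounds.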

Other observations

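Granulocytic-like cells had different values in the libraries of replicate 2. Cxcl2 was at 561 CPM in CONT and 59.0 in ABL, with a UMI in 22.1% and 5.70% of cells thinned to 2000 UMIs (26.4% and 6.84% before thinning), and the receptor Cxcr2 was at 369 and 117. In replicate 1 this class had Cxcl2 at 180 and 187 and Cxcr2 at 71.8 and 97.4. The 208 and 263 cells of replicate 2 had median depths of 14601 and 9297 UMIs. The mix of cells differed between them. CONT held 114 cells led by Retnlg, Mmp8, Il1b and Cxcr2, and 94 led by Elane and Prtn3 with F13a1, Ms4a6c and Ccr2. ABL held 108 led by Retnlg and Mmp8 with Ltf and Lcn2, and 155 led by Elane, Prtn3 and Jchain. Ccr2, a monocyte receptor, was at 163 and 159 in the class.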
